A study of Homo sapiens with 2 samples.

Results

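The subject is a set of 10 genes, 9 for transcription factors and POU2AF1 for a coactivator, whose products hold a B cell in its identity, keep it in the germinal centre state or switch it towards a plasma cell: PAX5, SPIB, POU2AF1, POU2F2, IKZF1, IKZF3, PRDM1, XBP1, BCL6 and BACH2. Every probe set whose platform annotation names exactly 1 gene symbol, and that symbol among these 10, was taken. This gave 21 probe sets of 36289 in the table, 29493 of which carry a single symbol. The rule picks probe sets by gene name and not by signal, although the genes were listed with earlier results of these data known. Messenger RNA came from a human lymphoblastoid cell line, a culture of B cells made immortal with Epstein-Barr virus, and the labels give 1 group of 2 samples, replicates 1 and 2. The titles spell the line GM06690 and the growth protocol spells it GM06990. The cells grew in RPMI1640 with 15% fetal calf serum and 2 mM L-glutamine and received no other treatment named in the labels, and each RNA was hybridised to its own Affymetrix Human Genome U133 Plus 2.0 array. The material is 1 transformed line with no untransformed B cell beside it. The labels do not say whether the replicates were separate cultures, and their spread may reflect handling alone.

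A mature B cell keeps its identity through PAX5, which turns on B-cell genes and holds down genes of other lineages, together with Ikaros (IKZF1), Aiolos (IKZF3), SPIB and the octamer-binding factor OCT2 (POU2F2) with its coactivator OBF1 (POU2AF1). In the germinal centre BCL6 and BACH2 repress PRDM1, the gene of BLIMP1. When PRDM1 is released it represses PAX5, BCL6 and SPIB, and XBP1 then drives the growth of the secretory apparatus of a plasma cell. In the textbook scheme the B-cell programme and the plasma cell programme therefore oppose each other.

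A signal is the log2 of the deposited RMA intensity of a probe set. The median intensity was 33.2 on the array of replicate 1 and 33.3 on that of replicate 2, and Pearson r between the arrays was 0.997 across probe sets, which are not independent replicates. The background level of an array was the 95th percentile over 76 reference genes typical of liver, brain, muscle, eye and other organs, which gave 5.96 for replicate 1 and 5.92 for replicate 2. A probe set above the level on both arrays is called above background, and a gene is called by the brightest of its probe sets. The probe sets in the table run in identifier order up to 227033_at, so a gene may have further probe sets on the array that were not analysed here. Probe sets differ in affinity, so signals of different probe sets were compared with the background level and not ranked as transcript amounts. The B-cell label was borne out by all 5 measured B-cell markers (MS4A1, CD79A, CD79B, CD22 and BLK) lying above background. RNA came from the whole culture, so fewer cells with a transcript and less of it per cell cannot be told apart.

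Of the 10 genes 7 were above background: PAX5, SPIB, POU2AF1, IKZF1, IKZF3, PRDM1 and XBP1. POU2F2, BCL6 and BACH2 were not. Across all 16716 genes 50.3% were above background, and by probe set 9 of 21 were above, against 41.5% of all probe sets, so the share of probe sets was close to that of the whole table. PAX5, SPIB, POU2AF1, IKZF1 and IKZF3 of the identity factors and both drivers of the plasma cell switch, PRDM1 and XBP1, were thus above background in the same culture. The identity factor POU2F2 and both repressors of the germinal centre state were not. The plot of signals by probe set shows the 2 arrays together for each.

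**Figure D1:**
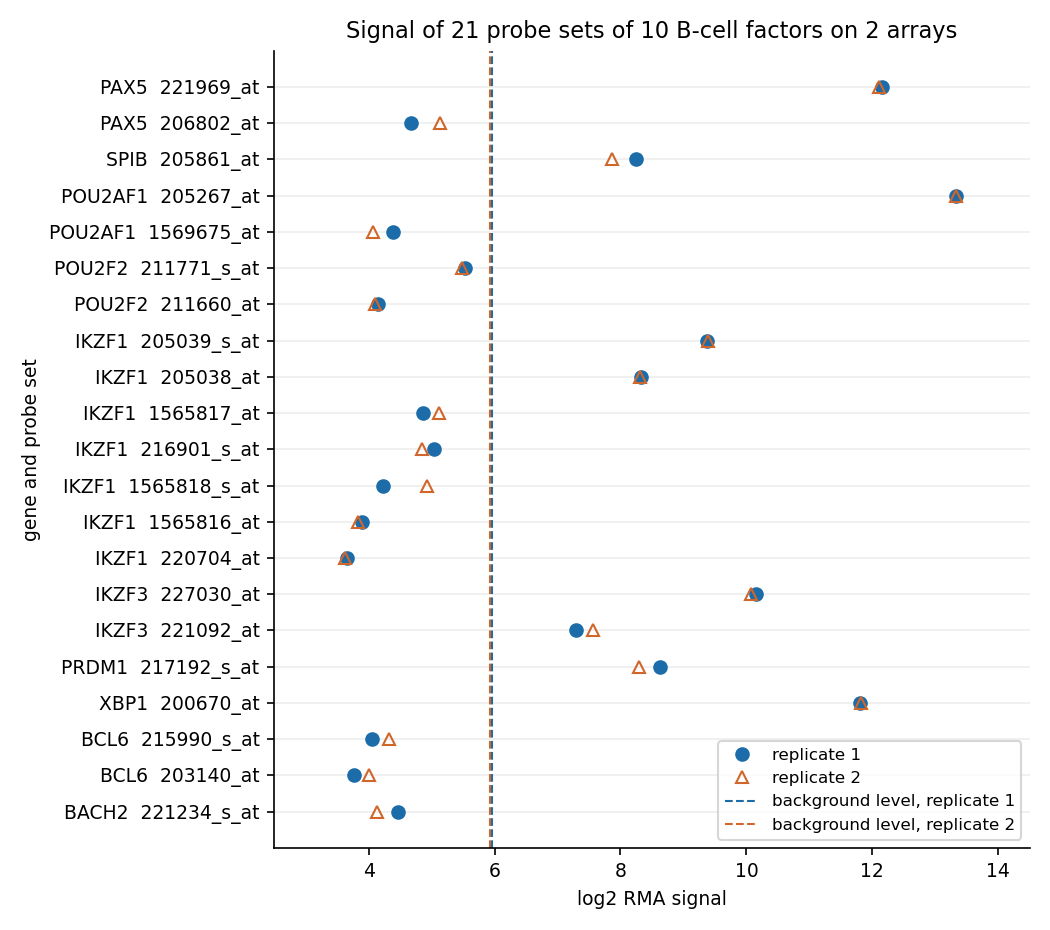
Signal of the 21 probe sets (rows, named by gene and probe set) on the log2 RMA scale; filled circles are replicate 1, open triangles replicate 2, and dashed lines are the background levels of 5.96 and 5.92. The 9 probe sets above background lie at 7.29 or higher on both arrays, and the other 12 lie at 5.53 or lower on both arrays, with no value between 5.53 and 7.29.

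PAX5, the factor that commits a cell to the B lineage, had an intensity of 4549 in replicate 1 and 4387 in replicate 2 by probe set 221969_at. On the log2 scale this is 12.13 ± 0.04 (SD, n = 2), 6.18 above the mean of the background levels. Its other probe set, 206802_at, gave intensities of only 25.5 and 35.1 (4.90 ± 0.33) and was below background on both arrays. The 2 probe sets of this gene thus differed by 7.22 on the log2 scale, and the gene's call rests on the brighter.

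IKZF1 encodes Ikaros, a zinc finger factor that opens and closes lymphoid genes, and was read by 7 probe sets. Of these 205039_s_at (intensities of 663 and 674, log2 9.38 ± 0.02) and 205038_at (322 and 316, log2 8.32 ± 0.02) were above background. The other 5 ran from intensities of 12.6 and 12.3 for 220704_at to 29.3 and 34.8 for 1565817_at, all below the level on both arrays. With the mean of all probe sets in place of the brightest, IKZF1 was not above background.

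IKZF3 encodes Aiolos, the relative of Ikaros that is typical of mature B cells. Its probe set 227030_at had intensities of 1136 and 1075 (log2 10.11 ± 0.06), and 221092_at had 156 and 188 (log2 7.42 ± 0.19). Both lay above background on both arrays, so among the genes with several probe sets this was the only factor of the 10 read the same way above background by all of them.

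SPIB encodes an ETS-family factor of B cells and plasmacytoid dendritic cells. Its single probe set, 205861_at, had an intensity of 303 in replicate 1 and 233 in replicate 2 (log2 8.05 ± 0.27). Both values were more than 3 times the background intensities of 62.4 and 60.6, and the value of replicate 1 was 1.30 times that of replicate 2.

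POU2AF1 and POU2F2 encode partners that act together on octamer elements, such as those of the immunoglobulin genes. POU2AF1, the coactivator OBF1, had intensities of 10232 and 10308 by 205267_at (log2 13.33 ± 0.01), while its other probe set, 1569675_at, had 20.9 and 16.9 (log2 4.23 ± 0.22) and was below background. POU2F2, the octamer-binding factor OCT2, had intensities of 46.2 and 44.5 by 211771_s_at (log2 5.50 ± 0.04) and of 17.7 and 17.1 by 211660_at (log2 4.12 ± 0.03). Neither POU2F2 probe set passed the level on either array, the brighter by 0.44 on the log2 scale. When the 75th percentile of the same reference genes set the level (4.68 and 4.67), 211771_s_at was above it on both arrays, so for POU2F2 the call depends on where the level is put.

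BCL6, the repressor that holds the germinal centre state, was below background by both of its probe sets. Intensities were 16.6 and 20.1 for 215990_s_at (log2 4.19 ± 0.20) and 13.6 and 16.1 for 203140_at (log2 3.89 ± 0.17). BACH2, a bZIP repressor that delays the plasma cell switch, had 22.1 and 17.6 by 221234_s_at (log2 4.30 ± 0.23), its only probe set among those analysed. Any BACH2 probe set after 227033_at was not analysed, so this call is a partial reading of the gene. BCL6 and BACH2 were also not above the lower level set at the 75th percentile. A signal not above background does not show that a transcript is absent.

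PRDM1 encodes BLIMP1, the repressor that ends the B-cell programme. Its single probe set, 217192_s_at, had intensities of 393 in replicate 1 and 315 in replicate 2 (log2 8.46 ± 0.23), above background on both arrays. XBP1, the factor of the unfolded protein response that builds the secretory pathway, had intensities of 3587 and 3607 by 200670_at (log2 11.81 ± 0.01). XBP1 protein becomes a strong activator only after its transcript is spliced by IRE1, and this probe set value does not separate the spliced form from the unspliced one.

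Among the 6 factors with at least 2 probe sets, PAX5, POU2AF1 and IKZF1 had some probe sets above background and some not, IKZF3 had all above, and POU2F2 and BCL6 had none above. Of all 7350 genes with at least 2 probe sets 32.5% had such mixed calls. The gaps between the brightest and dimmest probe set were 9.10 for POU2AF1, 7.22 for PAX5 and 5.75 for IKZF1 on the log2 scale, and 2.69, 1.38 and 0.30 for IKZF3, POU2F2 and BCL6. SPIB, PRDM1, XBP1 and BACH2 were each read by a single probe set here and have no such check.

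None of the 9 probe sets above background differed between the replicates by more than 0.58 on the log2 scale, about 1.5-fold. Of all 15558 probe sets above background on at least 1 array 0.713% did. The largest differences (replicate 2 minus replicate 1) were -0.38 for SPIB, -0.32 for PRDM1 and 0.27 for the dimmer IKZF3 probe set. In the signal range from 6.26 to 8.88 that holds these 3 probe sets, the median size of the difference was 0.11. There 90% of all probe sets differed by less than 0.29. All 3 lay above that median, SPIB and PRDM1 also above 0.29 and IKZF3 just below it. The median size of the difference was 0.05 over the 9 and 0.08 over all probe sets above background. XBP1 and the brighter POU2AF1 probe set differed by 0.01 each. Of the 12 probe sets below background, 1 differed by more than 0.58. This was 1565818_s_at of IKZF1, which differed by 0.71, between intensities of 18.7 and 30.6. Of all 20731 probe sets not above background on either array 387 differed by more than 0.58. The median size of the difference was 0.24 over the 12 and 0.14 over all 20731. Differences at such signals are between values at background.

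**Figure D2:**
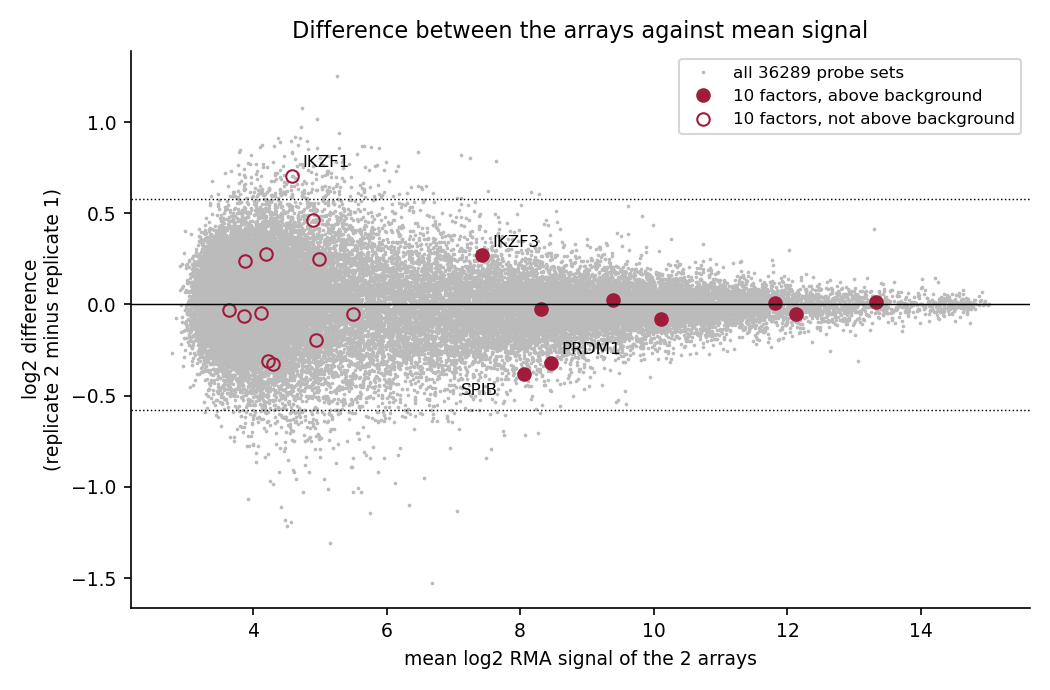
Difference between the arrays (vertical axis, log2 units, replicate 2 minus replicate 1) against mean log2 RMA signal (horizontal axis) for all 36289 probe sets in grey and the 21 probe sets of the factors in red, filled where above background. Dotted lines mark 0.58 either way; every filled point lies between them, and 1 open point, an IKZF1 probe set at 0.71, lies outside.

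The relatives of these factors share their DNA-binding domains. Of 21 measured relatives 8 were above background (38.1%, against 50.3% of all genes). Of the other PAX genes, PAX8 alone of 8 measured was above (7.26 ± 0.07, by 1 of its 8 probe sets), whereas PAX1 (4.62 ± 0.29), PAX2 (3.94 ± 0.11), PAX3 (4.01 ± 0.13), PAX4 (3.97 ± 0.06) and PAX6 (4.82 ± 0.60) were not. All 3 further Ikaros family genes were above: IKZF2, which encodes Helios (8.36 ± 0.22), IKZF4, which encodes Eos (6.43 ± 0.02), and IKZF5, which encodes Pegasus (8.11 ± 0.16). SPI1, which encodes PU.1, the ETS-family partner closest in function to SPIB, was below background on both arrays (5.12 and 5.40), as was SPIC (3.35 ± 0.06). POU2F3 (3.53 ± 0.02) and BCL6B (5.06 ± 0.08) were below as well, while BACH1, the widely expressed relative of BACH2, was above (8.02 ± 0.01). SPI1 and BCL6B did pass the lower level of the 75th percentile. Among PRDM genes PRDM2 (10.59 ± 0.08), PRDM4 (8.78 ± 0.01) and PRDM10 (7.81 ± 0.03) were above, and PRDM11 (4.08 ± 0.05) and PRDM14 (4.96 ± 0.42) were not.

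**Figure D3:**
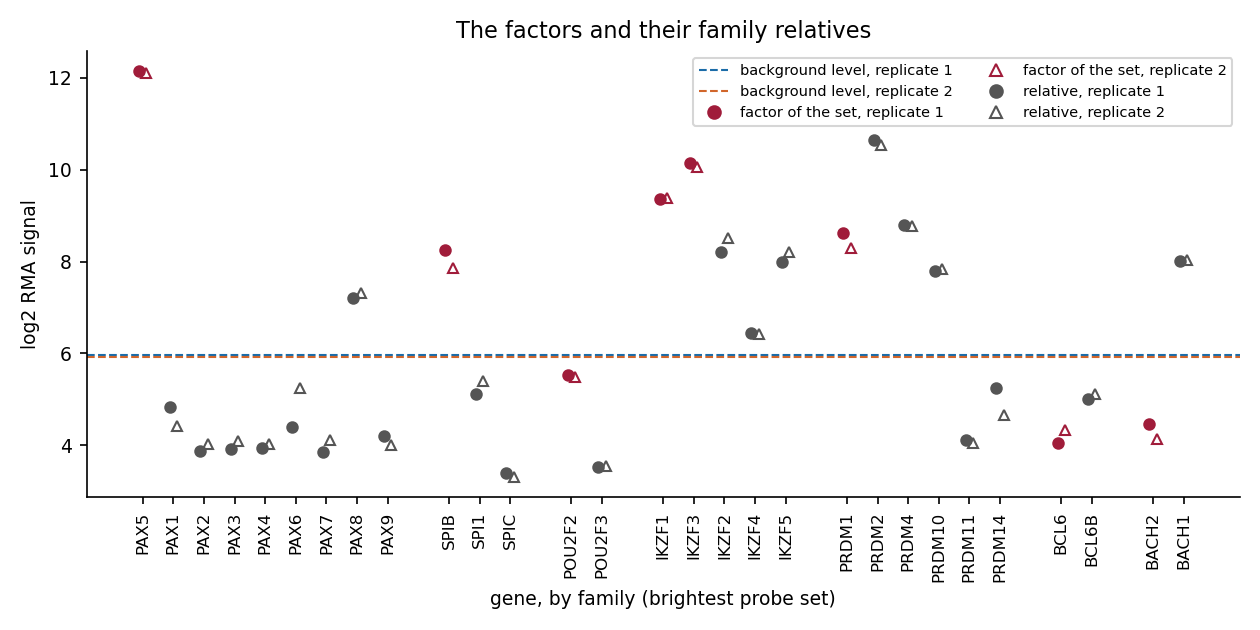
Log2 RMA signal (vertical axis) of the factors that have family relatives on the list, in red, and of those relatives, in grey, each by its brightest probe set; circles are replicate 1, triangles replicate 2, and dashed lines the background levels of 5.96 and 5.92. PAX5 and PAX8 are the PAX genes above the lines, all 5 Ikaros family genes are above, and BACH1 is above while BACH2 is below.

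Other transcription factors of B cells were above background in 17 of 19 measured cases, against 50.3% of all genes. They included the E proteins TCF3 (10.88 ± 0.03), TCF4 (11.39, SD under 0.01) and TCF12 (10.13 ± 0.01), which work with PAX5 in B-cell development. FOXP1 was not above by any of 6 probe sets (5.26 ± 0.20), and GFI1 passed the level in replicate 2 alone (5.95 and 6.35). Both genes passed the lower level of the 75th percentile. IRF4, which with PRDM1 and XBP1 marks the plasma cell programme, had 11.53 ± 0.16.

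Of the genes that PAX5 is known to activate, 9 of 13 measured were above background, 7 of 11 when SPIB and IKZF3, themselves among the 10 factors, are set aside. CD79A, a signalling chain of the B-cell receptor (11.30 ± 0.03), BLNK, its adaptor (12.57 ± 0.03), and CR2, the complement receptor through which Epstein-Barr virus enters (11.02 ± 0.11), were above. CD72 (4.62 ± 0.53), the surrogate light chain genes IGLL1 (4.22 ± 0.23) and VPREB1 (3.58 ± 0.06) and the recombinase gene RAG2 (3.22 ± 0.05) were not; the last 3 belong to precursor B cells. Of the genes that PAX5 is known to repress, 6 of 10 were above, 4 of 8 without PRDM1 and XBP1. The latter share is close to that of all genes, 50.3%. NOTCH1 (7.68 ± 0.11) was above, as were JCHAIN, the joining chain of secreted antibody (13.08 ± 0.01), and SDC1, the plasma cell proteoglycan (9.07 ± 0.02). The receptors of other lineages CSF1R (3.85, SD under 0.01), FLT3 (4.68 ± 0.15), CD28 (5.40 ± 0.29) and CCR2 (4.47 ± 0.39) were not. Within this list the genes above background were NOTCH1, EMB, SDC1, JCHAIN, PRDM1 and XBP1. SDC1 and JCHAIN are counted again in the plasma cell list below.

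Across all genes 50.3% were above background at the level of the 95th percentile. This is the share to set beside each count of this paragraph made at that level. Genes repressed by BLIMP1 in plasma cells were above background in 6 of 8 measured cases, 4 of 5 without the factors themselves. They included CIITA, the class II regulator (6.14 ± 0.10), and MYC (11.65 ± 0.07). CIITA passed the level by only 1 of its 3 probe sets, and the exceptions were BCL6 itself and the follicle-homing receptor CXCR5 (4.11 ± 0.10). Genes repressed by BCL6 were above background in 15 of 15 cases, 14 of 14 without PRDM1. Among them were the cyclin CCND2 (12.74 ± 0.08), the damage kinase ATR (10.58, SD under 0.01) and its partner CHEK1 (10.55 ± 0.01). No member of that list lay at background, and nor did any of the 12 measured plasma cell genes, such as SDC1, JCHAIN and IRF4. IRF4 counts in both lists and among the other B-cell factors. CIITA, CSF1R, CXCR5, ID2, ID3 and LEF1 also count in more than 1 list, so the list counts are not separate observations. Whether the signals of BCL6 and PRDM1 bear on these counts was not tested. The germinal centre list had 3 of 9 above: LMO2 (8.31 ± 0.11), ELL3 (7.92 ± 0.25) and STAP1 (10.04 ± 0.12). MME (5.65 ± 0.07), RGS13 (5.62 ± 0.18), S1PR2 (3.79 ± 0.09), MYBL1 (5.74 ± 0.08) and SERPINA9 (5.88 ± 0.46) were not, SERPINA9 passing in replicate 2 alone. This count depended on the settings. It was 8 of 9 at the level of the 75th percentile and 6 of 9 with KRT10 and MBP left out of the reference. It was 4 of 5 once probe sets ending in _x_at or _s_at were dropped. The share of all genes above background is not given for these settings, so these counts have no such share beside them.

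The pathway around XBP1 was above background in 18 of 19 genes, 94.7% against 50.3% of all genes. RTCB, the ligase that joins the ends of the spliced XBP1 transcript (10.93, SD under 0.01), and the stress sensor ATF6 (9.81 ± 0.05) were above. The known XBP1 targets DNAJB9 (10.07 ± 0.07), EDEM1 (10.36 ± 0.03) and SEC61B (12.52 ± 0.03) were above too. The exception was ERN1, which encodes the splicing enzyme IRE1 (4.97 and 5.10, by 1 probe set). ERN1 did pass the lower level of the 75th percentile, so its call depends on where the level is put. Of the bZIP partners and targets linked to BACH2, 4 of 5 were above. They were MAFG (7.53 ± 0.08), NFE2L1 (9.72 ± 0.04), NFE2L2 (11.02 ± 0.06) and HMOX1, a target that BACH2 and BACH1 repress (8.21 ± 0.10). MAFF was not (5.09 ± 0.03), although it passed the level of the 75th percentile. Corepressors used by BCL6, BLIMP1 and Ikaros were above in 17 of 18 cases, including BCOR (7.33 ± 0.13), HDAC3 (9.40 ± 0.04) and TBL1XR1 (10.64 ± 0.09), and MTA2 was not (4.56 ± 0.18).

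Genes of naive B cells were above background in 7 of 10 cases, with FCER2, which encodes CD23 (11.02, SD under 0.01), and TCL1A (9.83 ± 0.01) above and IGHD (4.96 ± 0.28), CXCR5 and BANK1 (5.79 ± 0.41) not, BANK1 passing in replicate 2 alone. The share over all genes was 50.3%. The lists for T, NK and myeloid cells had 1 of 12, 0 of 7 and 0 of 9 measured genes above background. The 1 was the kinase LCK (9.63 ± 0.04). CD3D (4.94 ± 0.21), CD3E (4.49 ± 0.04), CD3G (4.50 ± 0.09), NCAM1 (4.84 ± 0.07), KLRD1 (4.13 ± 0.08), NKG7 (4.18 ± 0.07), CD14 (3.77 ± 0.07) and LYZ (3.72, SD under 0.01) were all below. Summed intensities of the T-cell list were 1029 and 1034 on the arrays, of which LCK gave 779 and 807 and the other 11 genes 250.3 and 226.5. The sums were 181 and 163 for the NK-cell list and 230 and 243 for the myeloid list. Of 16 measured master factors of other lineages 3 were above: CEBPB (8.55 ± 0.05), GATA3 (8.48 ± 0.04, by 1 of 3 probe sets) and LYL1 (7.94 ± 0.09). GATA1 (5.32 ± 0.24), GATA2 (5.41 ± 0.14), BCL11B (3.83 ± 0.43) and CEBPA (4.44 ± 0.21) were not. At the level of the 75th percentile the T-cell, NK-cell, myeloid and other-lineage counts were 4, 2, 3 and 7. The share of all genes at that level is not given.

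**Figure D4:**
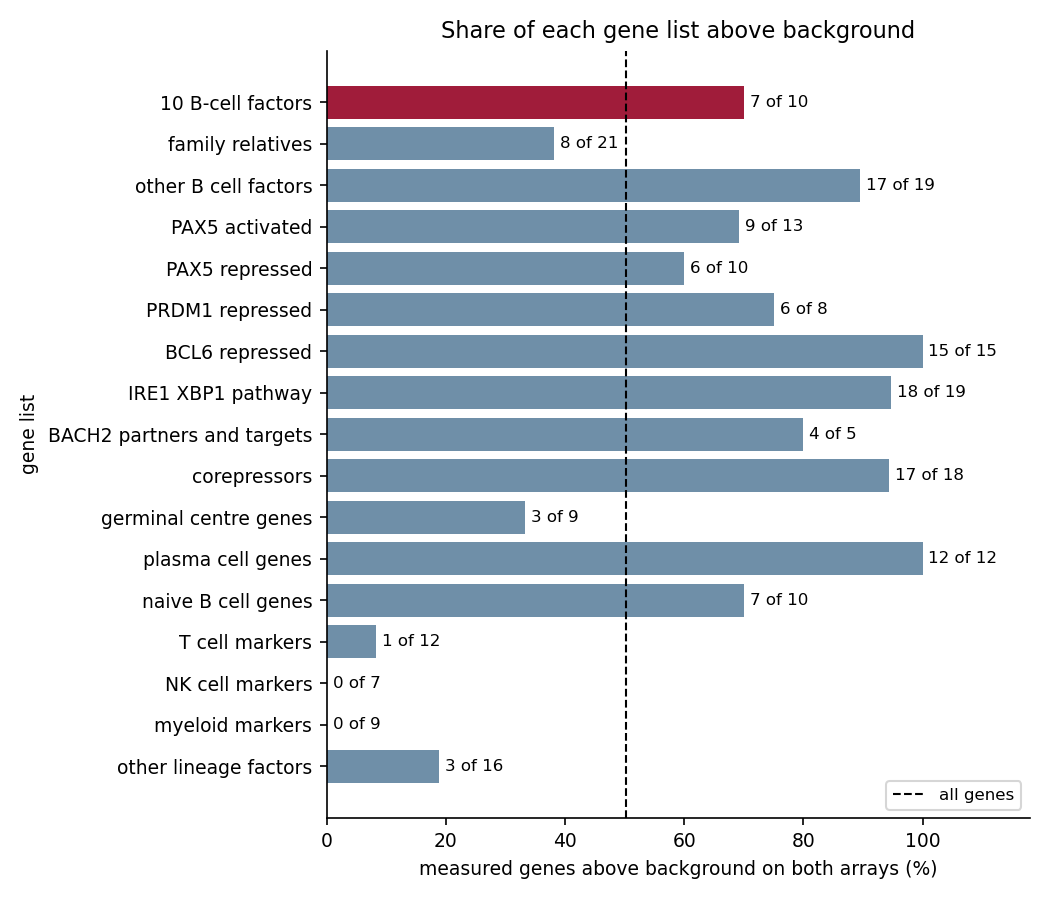
Share of the measured genes of each list above background on both arrays (horizontal axis, percent; the counts stand at the bar ends) for the 10 factors in red and 16 further lists in blue, with the 50.3% of all genes as a dashed line. The plasma cell and BCL6-repressed lists reach 100%, the 10 factors 70%, and the germinal centre list 33.3%.

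Promoters were read for the letters at the starts of the factors, first of XBP1, above background, and BCL6, below it. Whether these letters bear on the signals was not tested. RefSeq sequences on GRCh38.p14 cover 250 bases before to 50 bases after an annotated start, and 13 starts of 8 of the factors were matched (none for POU2AF1 and IKZF3). The motifs were chosen after the promoter letters had been seen, and a match is a description of letters, not of binding. In XBP1 the stress element through which ATF6 is known to raise XBP1, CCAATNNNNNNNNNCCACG, lies at -52 to -34 of the first start. Only 0.0769% of 35116 promoter windows hold this motif on either strand, and within the XBP1 pathway list the promoters of HSPA5 and PDIA6 hold it too, 2 of 18 genes with a window. The 250 bases before that start are shown with the element in capitals (GRCh38.p14, chr22:28800570-28800819, minus strand).
XBP1: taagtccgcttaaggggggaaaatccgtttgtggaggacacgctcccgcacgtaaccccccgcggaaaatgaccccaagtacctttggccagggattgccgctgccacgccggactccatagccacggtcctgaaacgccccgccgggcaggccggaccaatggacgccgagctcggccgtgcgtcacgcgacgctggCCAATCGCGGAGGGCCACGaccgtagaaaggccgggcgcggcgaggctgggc

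The first annotated start of BCL6 holds 4 copies of the palindrome TTCNNNGAA, the core that BCL6 and STAT proteins share; BCL6 is known to repress its own gene through such sites. Of all promoter windows 7.66% hold at least 1 copy and 0.0199% hold 4 or more. The copy at 37 to 45 after the start also matches TTCCTAGAA, read on the other strand, which 0.373% of windows hold. None of the other 12 starts of the factors holds the palindrome, and none of the 14 genes with a window in the list of BCL6-repressed genes does. Besides BCL6 itself, ID3 in the BLIMP1-repressed list and RTCB and SRP54 in the XBP1 pathway list hold it. Each BCL6 copy is in capitals with 5 bases either side (GRCh38.p14, minus strand).
BCL6, chr3:187745483-187745501: tcaaaTTCCGAGAAttgag
BCL6, chr3:187745460-187745478: gttgaTTCTTAGAActggg
BCL6, chr3:187745445-187745463: tggggTTCTTAGAAgtggt
BCL6, chr3:187745419-187745437: gaagtTTCTAGGAAaggcc

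TGAGTCA, the core shared by AP-1 and by the MAF elements that BACH2 binds with small MAF proteins, was found at the second annotated start of PRDM1 (-42 to -36, on the other strand) and at the second start of BCL6 (-77 to -71). It stands in 4.95% of all windows. TGACGTCA, the palindrome of cyclic AMP response elements, was found in BACH2 (-82 to -75) and stands in 1.85% of windows. SPIB has a TATAAA at -29 to -24 from its start, the usual place of a TATA box, and 11.5% of windows hold these letters somewhere. PAX5 (-238 to -233) and the third IKZF1 start (-204 to -197, overlapping matches on both strands) hold it far from the start. TGGGAA, the Ikaros core, was found in IKZF1 and in the second start of XBP1, and it is common, in 24% of windows. The octamer ATTTGCAT (1.77% of windows) and the ETS element GAGGAAGT (2.59%) were in none of the 13 windows, which says only that these letters are not there. The PRDM1, BACH2 and SPIB matches are shown in capitals (GRCh38.p14; plus strand for PRDM1 and SPIB, minus for BACH2).
PRDM1, chr6:106098888-106098916: cttctacccagTGACTCAaagcactaaaa
BACH2, chr6:90296907-90296936: tggggagcgggTGACGTCAgcgccgaatgt
SPIB, chr19:50418897-50418926: gctgggccaagaTATAAAtagggttggcgg

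**Figure D5:**
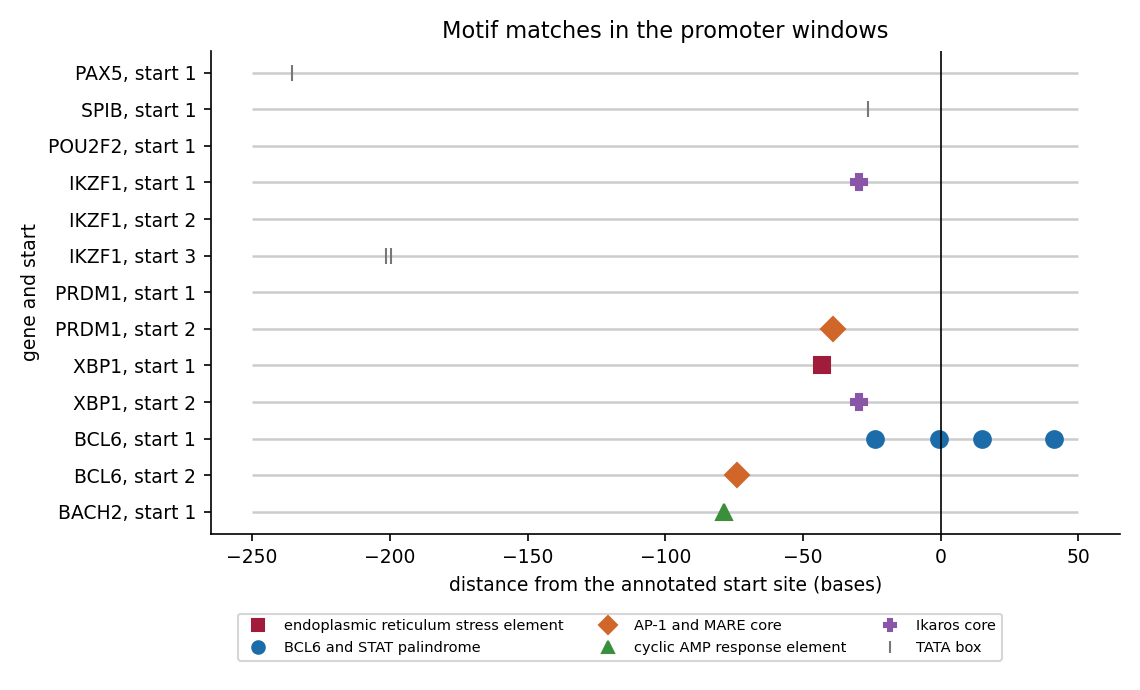
Motif matches on either strand in the 13 promoter windows of 8 factors (rows), by distance in bases from the annotated start site (horizontal axis, from -250 to 50); each symbol is the centre of a match. BCL6 start 1 carries the 4 palindromes near its start, and the XBP1 stress element lies at -52 to -34.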

How the data were processed

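The deposited values are intensities, 1 per probe set and array, made by the authors with RMA, per the submitters' processing notes; the version, and any genome build, are not given in the sources used here. They run from 6.29 to 33093 and are therefore linear, and their log2 was taken here. Array number limits the precision. Gene names came from the array's platform annotation, and 29461 of the 29493 single symbols were brought up to date by Entrez ID through RefSeq (GRCh38.p14); 1407 had several symbols and 5389 none and named no gene. With 1 group of 2 replicates there is no contrast, so no test was run and no p-value is given. The calculations used Python 3.11.15, numpy 2.4.6 and pandas 2.3.3, and were tested on simulated data. The members, the gene lists and the background reference (91 genes, 76 measured) were chosen with earlier results of these data known. In each list the text names the first 3 measured genes, those above background in lists of other cell types and lineages, and up to 5 not above in the others; IRF4, HMOX1, NFE2L2, LMO2, ELL3, STAP1, JCHAIN, SDC1, NOTCH1, EMB and some further targets, relatives and lineage factors were added after their values were seen. Alternatives varied the level, reference, probe sets, normalization and replicates.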

Additional observations from a re-analysis of the deposited data

How the results depend on the processing

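The count of factors above background was 7 of 10 on each array alone, after a second quantile normalization, with olfactory receptor genes as reference and with KRT10 and MBP, the brightest reference genes, left out (chosen after seeing the data); it was 8 when the 75th percentile set the level, 6 of 8 without _x_at and _s_at probe sets, which drops PRDM1 and BACH2, and 6 when the probe sets of a gene were averaged. At the 99th percentile, a level of 10.52 and 10.60 that KRT10 and MBP set, 3 factors and 3 probe sets were above (PAX5, POU2AF1 and XBP1), and 48 genes over all lists against 116. The list counts there were 0 family relatives, 11 other B-cell factors, 3 and 2 PAX5-activated and PAX5-repressed genes, 3 PRDM1-repressed, 7 BCL6-repressed, 10 XBP1 pathway, 1 BACH2-linked, 5 corepressor, 0 germinal centre, 3 naive B-cell, 0 T-cell and 0 other-lineage genes. At the 75th percentile the counts that moved were 8 germinal centre, 4 T-cell, 2 NK-cell, 3 myeloid and 7 other-lineage genes. Without _x_at and _s_at probe sets, where fewer genes are measured, they were 11 other B-cell factors, 3 PRDM1-repressed, 2 BACH2-linked, 10 corepressor, 4 naive B-cell, 0 T-cell, 1 NK-cell, 2 myeloid and 1 other-lineage gene; the germinal centre count was 4 of 5, against 3 of 9. Without KRT10 and MBP they were 6 germinal centre, 1 NK-cell and 2 myeloid genes. The number of factor probe sets differing by more than 0.58 was 1 when those below background were included and 3 at a minimum of 0.26. The median signal of the 21 probe sets moved with the scale and was 5.58 on the log2(value + 16) scale and between 5.04 and 5.14 with a replicate left out. All other counts tried stayed within 1.5 times. The share over all genes, 50.3%, is given for the main setting alone. It is not a comparator for the counts at the other settings. Apart from these settings, the cause of a move was not tested. No paired analysis was possible because there is 1 group. With 2 arrays and no detection call, signals near 5.9 cannot be placed with confidence.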
